A study of Mus musculus with 3 samples.

Results

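The genes examined were the 10 core components of the TGF-beta pathway named for this work: the ligand gene Tgfb1, the receptor genes Tgfbr1 and Tgfbr2, the co-receptor genes Tgfbr3 and Eng, and the genes of the signal transducers Smad2, Smad3, Smad4, Smad6 and Smad7. All coordinates are on GRCm38 (mm10). The genes were chosen by name and are 10 of the 21670 protein-coding genes on chromosomes 1 to 19 and X. For each gene, ATAC fragments were counted over the gene body and 50 kb on either side in bins of 500 bp, which gave 3452 bins over 10 loci that do not overlap. ATAC-seq marks chromatin that a transposase can reach, so a fragment reports an accessible stretch of DNA and not a transcript. The cells were long-term hematopoietic stem cells (HSCs) of wild-type female C57BL/6 mice (substrain J in the methods of the study) aged 8 weeks, sorted from fresh bone marrow as LSKCD150+CD48-CD34- and profiled by DOGMA-seq, which reads open chromatin, RNA and antibody tags in the same cells. There is 1 preparation with 3 libraries and no second condition, and the number of mice pooled is not stated. The values below come from the ATAC library alone, without a replicate, and no difference was tested. Intervals are exact 95% Poisson intervals for fragments and exact 95% Clopper-Pearson intervals for shares of cells, and both cover counting error only.

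Of 3757 called cells, 3108 had over 3000 fragments in peaks, and these gave 37137164 fragments on chromosomes 1 to 19 and X, with a median of 11457 per cell. The genome mean was 7.05 fragments per 500-bp bin and 14.1 per 1000 bp. A bin or a start window was called open at 10 times this mean or more, which for a bin is at least 71 fragments. The median bin of the genome held 1 fragment. The sort label was checked on the 1000-bp windows at the starts of marker genes. By the same rule 55.3% of all protein-coding starts were open. Among HSC markers 7 of 9 were open, with Hlf at 121 times the mean and Kit at 73.0 times. The starts of Ly6a and Slamf1, which encode the sorted antigens Sca-1 and CD150, were under the limit at 2.27 and 7.02 times. None of the 12 T cell, B cell, neutrophil and erythroid markers was open, against 2 of 4 endothelial markers (Pecam1 at 16.7 times and Kdr at 24.2) and 2 of 4 stromal markers (Cxcl12 at 10.8 times and Pdgfrb at 19.01), both close to that share. Of the others on these lists, the endothelial Cdh5 and Emcn were at 2.34 and 8.37 times the mean, and the stromal Lepr and Col1a1 at 1.35 and 3.48 times. The Eng start was at 27.6 times, and the part of endothelial or stromal cells in the values of Eng or the other genes was not tested.

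TGF-beta is secreted in a latent form and, once released, binds the type II receptor TGFBR2, which recruits and phosphorylates the type I receptor TGFBR1. Betaglycan (TGFBR3) and endoglin (ENG) are co-receptors that present or modulate ligand. TGFBR1 phosphorylates the effector proteins SMAD2 and SMAD3, which join SMAD4 and act on genes in the nucleus, while SMAD6 and SMAD7 inhibit the pathway and are themselves among its induced genes. In the bone marrow the pathway is known for its part in keeping HSCs quiescent.

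The start regions that stand at both ends of the range of receptor promoters, and the start of the inhibitor Smad6, are printed first. Bases in capitals match 1 of the 11 motif strings searched, which are spelled out with their shares below, or the core of the CTCF motif, which is in capitals in the Tgfbr1 downstream sequence alone. The promoters of Tgfbr1 and Eng are from RefSeq on GRCm38.p6 and run from 250 bases before the start to 30 bases after it, on the plus strand, which is the strand of both genes. The Tgfbr1 sequence lies at chr4:47352972-47353251 and held 1650 fragments.
Tgfbr1 promoter: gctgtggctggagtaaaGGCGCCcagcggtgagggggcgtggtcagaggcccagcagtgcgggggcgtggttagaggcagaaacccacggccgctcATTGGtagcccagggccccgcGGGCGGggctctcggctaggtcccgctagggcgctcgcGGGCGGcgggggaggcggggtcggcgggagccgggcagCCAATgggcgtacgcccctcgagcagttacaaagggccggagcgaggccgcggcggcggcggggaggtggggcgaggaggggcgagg
The Eng sequence lies at chr2:32646345-32646624 and held 188 fragments.
Eng promoter: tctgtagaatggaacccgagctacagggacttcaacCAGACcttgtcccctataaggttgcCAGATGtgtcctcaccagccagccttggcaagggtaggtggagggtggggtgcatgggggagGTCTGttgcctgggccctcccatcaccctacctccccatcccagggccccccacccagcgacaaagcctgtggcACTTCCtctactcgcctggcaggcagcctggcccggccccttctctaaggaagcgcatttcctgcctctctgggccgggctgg
The Tgfbr1 stretch held 33 CpG dinucleotides at 75.7% GC, and the Eng stretch of the same length held 6 at 63.2% GC. In capitals, the former has 2 CCAAT boxes, 2 GGGCGG boxes and 1 GGCGCC string, and the latter has 2 CAGAC strings, 1 E-box and 1 ETS core. The Smad6 stretch, at chr9:64022050-64022249 on GRCm38, is shown on the plus strand. Smad6 is transcribed from the minus strand, so the stretch begins 10 bases inside the gene and runs upstream of it.
Smad6 start: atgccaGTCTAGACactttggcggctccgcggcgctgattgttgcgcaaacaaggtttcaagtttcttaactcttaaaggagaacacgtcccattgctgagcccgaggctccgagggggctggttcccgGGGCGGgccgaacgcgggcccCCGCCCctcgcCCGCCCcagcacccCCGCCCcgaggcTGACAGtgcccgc
Its first capitals are the palindrome GTCTAGAC, to which SMAD3 and SMAD4 are known to bind. It lies at chr9:64022056-64022063, across the annotated start. The other capitals are 4 GGGCGG boxes on either strand and 1 TGACAG.

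The next set shows 200 bp at the summits of open sites away from the starts, on the plus strand of GRCm38: the highest intronic sites of Smad3, Smad6 and Tgfbr2, the intronic summit of the Tgfb1 site, a site downstream of Tgfbr1, the highest site upstream of Eng that lies in no other coding gene, and the Eng site in intron 1. The stretches, in the order printed, are chr9:63721731-63721930 (380 fragments), chr9:63726721-63726920 (559), chr9:63974721-63974920 (567), chr7:25689221-25689420 (577), chr9:116123051-116123250 (157), chr4:47438131-47438330 (176), chr2:32638071-32638270 (548) and chr2:32654871-32655070 (98).
Smad3 intron 1, site with the most fragments: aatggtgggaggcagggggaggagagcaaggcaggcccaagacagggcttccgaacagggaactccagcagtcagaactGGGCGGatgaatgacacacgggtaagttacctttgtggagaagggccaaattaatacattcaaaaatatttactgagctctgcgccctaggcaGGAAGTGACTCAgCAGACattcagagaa
Smad3 intron 1, next site: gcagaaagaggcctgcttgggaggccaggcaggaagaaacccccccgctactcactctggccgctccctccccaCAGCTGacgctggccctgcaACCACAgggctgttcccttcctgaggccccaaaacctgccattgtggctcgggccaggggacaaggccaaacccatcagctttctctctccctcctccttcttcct
Smad6 intron 3: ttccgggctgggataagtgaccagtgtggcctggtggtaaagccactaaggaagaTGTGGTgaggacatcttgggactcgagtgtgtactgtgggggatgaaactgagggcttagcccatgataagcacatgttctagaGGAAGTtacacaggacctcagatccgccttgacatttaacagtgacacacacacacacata
Tgfb1 intron 1: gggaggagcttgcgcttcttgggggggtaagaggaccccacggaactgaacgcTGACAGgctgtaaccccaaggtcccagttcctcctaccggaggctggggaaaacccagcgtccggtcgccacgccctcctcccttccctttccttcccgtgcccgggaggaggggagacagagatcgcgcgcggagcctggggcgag
Tgfbr2 intron 3: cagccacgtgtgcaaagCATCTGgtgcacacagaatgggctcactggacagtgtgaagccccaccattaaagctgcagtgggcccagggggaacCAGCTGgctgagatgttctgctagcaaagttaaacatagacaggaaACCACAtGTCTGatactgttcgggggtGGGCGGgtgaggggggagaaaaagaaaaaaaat
Tgfbr1 downstream: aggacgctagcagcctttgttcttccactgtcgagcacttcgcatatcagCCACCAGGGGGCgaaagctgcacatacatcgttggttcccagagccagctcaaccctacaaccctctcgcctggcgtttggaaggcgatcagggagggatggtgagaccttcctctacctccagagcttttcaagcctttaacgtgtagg
Eng upstream: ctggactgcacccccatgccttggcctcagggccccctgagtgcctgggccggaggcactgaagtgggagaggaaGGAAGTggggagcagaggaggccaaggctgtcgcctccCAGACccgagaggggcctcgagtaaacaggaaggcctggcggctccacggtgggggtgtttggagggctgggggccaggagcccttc
Eng intron 1: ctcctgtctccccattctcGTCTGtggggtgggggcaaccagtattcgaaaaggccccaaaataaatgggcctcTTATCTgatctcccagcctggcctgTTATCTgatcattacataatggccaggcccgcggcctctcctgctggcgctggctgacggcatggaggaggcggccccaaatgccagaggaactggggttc
In the first Smad3 sequence an ETS core, an AP-1 string and a CAGAC string follow each other, with the ETS and AP-1 strings sharing 1 base. The next Smad3 sequence and the Smad6 intron each hold a RUNX string. The Eng intron holds 2 GATA strings, and the Tgfbr1 sequence is shown for its match to the core of the CTCF motif.

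All 10 member start windows, each 1000 bp centered on the principal annotated start, were open, where 55.3% of all protein-coding genes were open by the same rule (11986 of 21670). The median member was at 102 times the genome mean. The median was 15.8 times over all protein-coding genes and 58.4 times over the open ones. In order of fragments the members were Smad2 (3110), Tgfbr1 (2504), Smad7 (1963), Smad4 (1956), Smad3 (1712), Tgfb1 (1162), Smad6 (1107), Tgfbr3 (773), Tgfbr2 (568) and Eng (389). Of the 9 pairs of neighbors in that order, 7 had intervals that did not overlap. Smad7 and Smad4 did not differ beyond counting error, with a ratio of 1.00 (0.942 to 1.07), nor did the intervals of Tgfb1 and Smad6 lie apart. Both ties, and the order of other members, depended on the window. Over 2000 bp Smad7 was at 98.1 times the mean and Smad4 at 72.9 times. Smad6 was there at 82.1 times and Tgfb1 at 48.4 times. In that window Smad7 also stood above Tgfbr1 (94.5 times), and Smad6 above Smad4 and Smad3 (68.8 times). Sub-nucleosomal fragments are those shorter than the DNA around 1 nucleosome. With these alone Smad4 was at 188 times and Smad7 at 164.7 times, with Smad3 between them at 168 times. Smad6 was at 106.3 times (683 fragments) and Tgfb1 at 95.6 times (614), counts whose intervals overlap. The lowest member, Eng, stood at percentile 58.3 of all protein-coding genes and the highest, Smad2, at percentile 97.0.

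**Figure D1:**
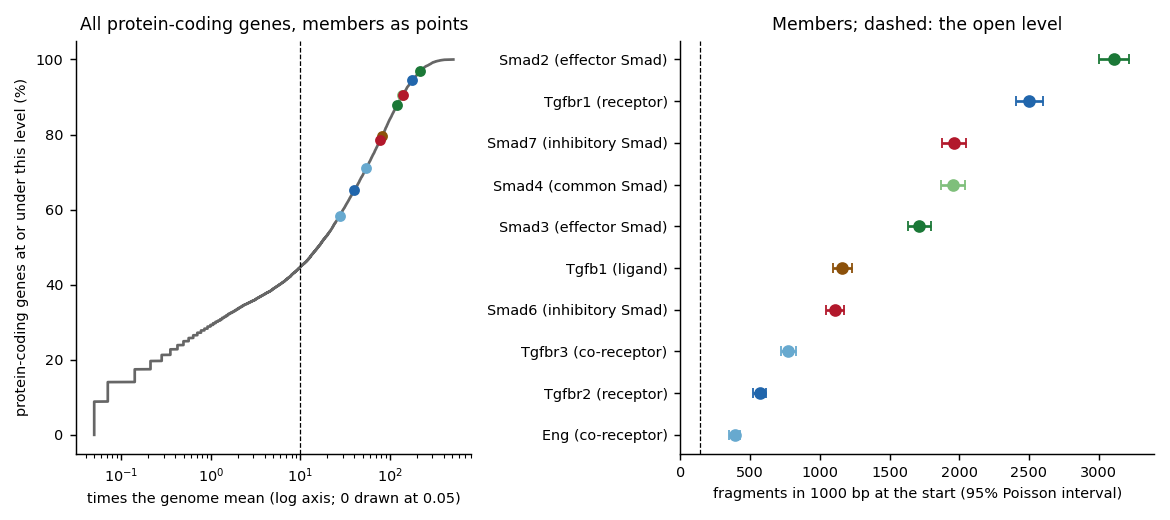
The left panel plots the share of protein-coding genes (%) at or under each level of the start window, in times the genome mean on a log axis, with the 10 members as points on the curve. The right panel plots each member's fragments in 1000 bp with its 95% Poisson interval. The members run from Eng at 389 fragments to Smad2 at 3110, and all 10 lie to the right of the dashed open level.

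The ligand gene Tgfb1 (ENSMUSG00000002603.15, chr7:25687002-25705077, plus strand) had an open run that reached far into its first intron. The start window held 1162 fragments (1096 to 1231), 82.4 times the genome mean, in 27.1% of cells (25.5 to 28.7). The run of open bins covered 4000 bp and held 3319 fragments. Its bins from 5′ to 3′ held 591, 571, 137, 196, 150, 1022, 576 and 76 fragments, so that the run has a first peak at the start, a low middle and a higher peak beyond it. The higher peak had its summit 2.32 kb inside the gene, in intron 1 of the principal transcript. It lies within the single exon of a retained-intron transcript that begins 1888 bp past the principal start, and past the start of a transcript annotated for nonsense-mediated decay at 1925 bp. The 1000-bp windows at these starts held 912 and 1013 fragments. Neither transcript is of the protein-coding type, so neither counted as a coding start.

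Outside that run, Tgfb1 had no open site in its gene body, and its neighborhood was filled by other genes. The 3 highest of its 13 sites outside the gene lay at coding starts of other genes: 3396 fragments at B9d2, 6.02 kb upstream, 3229 at Hnrnpul1, 67.8 kb downstream of the start, and 2961 between Bckdha and Exosc5, 27.9 kb upstream. The Hnrnpul1 site ends with the last whole bin of the locus, which held 2897 fragments, so any part beyond it was not counted. The remaining 10 sites held 72 to 1309 fragments. Of the 8 sites at no coding start, the highest lay 21.3 kb past the Tgfb1 start, beyond the end of the gene, with 812 fragments (757 to 869.8) in 18.5% of cells (17.2 to 19.9). At this locus 36 of 235 bins were open (15.3%).

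The type I receptor gene Tgfbr1 (ENSMUSG00000007613.15, chr4:47353222-47414931, plus strand) had a compact and highly accessible promoter. Its start window held 2504 fragments (2407 to 2604), 178 times the mean, in 49.4% of cells (47.6 to 51.1). Of the 2603 fragments in its promoter run, 2073 fell into a single 500-bp bin at the start. The remaining sites were few: 383 fragments 85.0 kb past the start, 279 at 72.3 kb, both downstream of the gene, and 172 in intron 4 at 46.9 kb, with 3 further sites of 81 to 150 fragments. The windows of coding starts 85 and 388 bp past the principal one overlap its own and held 2498 and 1602 fragments, whereas the coding start 32994 bp inside the gene held 2.

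The type II receptor gene Tgfbr2 (ENSMUSG00000032440.13, chr9:116084293-116175360, minus strand), whose product binds the ligand first, had a much weaker start. Its window held 568 fragments (522 to 617), 40.3 times the mean, in 14.9% of cells (13.6 to 16.2). The Tgfbr1 window thus held 4.41 times as many fragments (4.02 to 4.84). With sub-nucleosomal fragments alone Tgfbr1 was at 276 times the mean and Tgfbr2 at 40.01 times, and over 2000 bp they were at 94.5 and 26.7 times. Tgfbr2 instead had 6 internal sites. The highest lay in intron 3, 52.2 kb past the start, with 434 fragments (394 to 477) in 11.5% of cells (10.4 to 12.7). Another lay at the 3′ end of the gene, 90.6 kb past the start and outside the principal transcript, with 327 fragments, and the next in intron 1 at 29979 bp held 230. The other 5 sites held 77 to 212 fragments. Together the sites away from the start held 2.26 fragments for each fragment in the promoter run of 712.

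The co-receptor gene Tgfbr3 (ENSMUSG00000029287.14, chr5:107106570-107289629, minus strand) encodes betaglycan. Its start window held 773 fragments (719 to 829), 54.8 times the mean, in 19.9% of cells (18.6 to 21.4), which was 1.36 times the Tgfbr2 window (1.22 to 1.52). The promoter run of 1011 fragments was shifted into the gene, with 541 fragments in the bin from 129 to 628 bp past the start and 321 in the bin across it. The 3 highest other sites held 337 fragments beyond the 3′ end of the gene, 236 in intron 1 at 2.33 kb, and 219 in intron 3 at 89.2 kb. A further 5 sites held 99 to 218. The window of a second coding start inside the gene held 9 fragments.

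Eng (ENSMUSG00000026814.16, chr2:32646595-32682669, plus strand), which encodes the co-receptor endoglin, had the weakest promoter of the 10 and the largest share of open bins. Its start window held 389 fragments (351 to 429.6), 27.6 times the mean, in 10.2% of cells (9.16 to 11.3), and the Tgfbr1 window held 6.44 times as many (5.78 to 7.18). The ratio of observed to expected CpG in the Eng window was 0.396, the lowest of the members, which otherwise ranged from 0.697 to 1.02. Around the gene 43 of 271 bins were open (15.9%, against 15.3% at Tgfb1). Of the 15491 fragments in open sites of the locus, 10095 lay at coding starts of other genes. Without such sites Eng held 5396, fewer than Smad6 (7868), Smad7 (7139), Smad3 (6559) or Tgfb1 (5741). The highest site upstream of Eng that lies in no other coding gene stood 8.42 kb before the start, with 859 fragments (803 to 918) in 20.4% of cells (19.03 to 21.9). It therefore held more fragments than the Eng promoter run of 402. In intron 1, at 8.38 kb past the start, a broader site held 374 fragments (337 to 414) in 10.4% of cells (9.37 to 11.6).

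Of the 18 sites around Eng outside its promoter, 8 lay at coding starts of other genes. The 3 highest were such sites: 4401 fragments at Cdk9, 1946 at Fpgs and 1770 at St6galnac6. The other 15 sites held 74 to 1243 fragments. Over all 10 loci, 5 of the 81 non-promoter sites that lay at no other gene's coding start held more fragments than the promoter run of their own locus, and all 5 were at the Eng locus. They were the site 8.42 kb upstream, one in St6galnac6 (568), one in Ak1 (492), one in Fpgs (816) and one 68.7 kb past the Eng start, close to Cdk9 (1243). All 5 were assigned to Eng by distance alone, and 4 of them are in or beside other genes.

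Both effector genes had strong starts and differed in their surroundings. Smad2 (ENSMUSG00000024563.16, chr18:76241580-76310963, plus strand) had the highest start window of the members, with 3110 fragments (3002 to 3221), 221 times the mean, in 57.2% of cells (55.5 to 59.0). Single fragments were seen in 958 cells, 2 fragments in 500 cells and 3 or more in 321. Smad3 (ENSMUSG00000032402.12, chr9:63646767-63757994, minus strand) held 1712 fragments (1632 to 1795), 121 times the mean, in 37.8% of cells (36.1 to 39.5), so that the Smad2 window held 1.82 times as many (1.71 to 1.93). Smad2 has 3 further coding starts within 594 bp of the principal one, where 1678 to 3136 fragments were counted in windows that overlap its own. The coding starts deeper in the genes were closed, with 7 and 3 fragments at those of Smad2 and 21, 18 and 35 at those of Smad3.

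Away from its start, Smad2 had 2 open sites in 337 bins, 1 in intron 1 with 214 fragments at 18.3 kb and 1 located 40.8 kb upstream with 184. Smad3 had 13 such sites, 7 of them inside the gene and 6 of these in its long first intron. The 2 highest sites in the gene lay 36.2 and 31.2 kb past the start, with 1156 fragments (1090.3 to 1225) in 26.3% of cells (24.8 to 27.9) and 1058 fragments (995 to 1124) in 24.5% of cells (23.0 to 26.1). These are the Smad3 sequences printed above. Their intervals overlap that of the Tgfb1 start window, over 2000 and 1500 bp against 1000. A single higher site, of 2418 fragments, was the shared start of Aagab and Iqch, 155 kb past the Smad3 start. The remaining 10 sites of the locus held 73 to 563 fragments. Inside Smad3, internal sites together held 3731 fragments, more than its promoter run of 2197.

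Smad4 (ENSMUSG00000024515.13, chr18:73639009-73703780, minus strand), the partner shared by the effectors, resembled Smad2 in its surroundings. Its start window held 1956 fragments (1870.3 to 2045), 139 times the mean, in 42.5% of cells (40.8 to 44.3), and the bin across the start held 1584 of the 2039 fragments in the promoter run. Smad2 held 1.59 times as many in its window (1.502 to 1.68). The 3 other open sites held 377 fragments 80.5 kb past the start, beyond the end of the gene, 137 at 48.4 kb upstream, and 91 in intron 4 at 29.4 kb. A second coding start, 25549 bp inside the gene, held 6 fragments.

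The inhibitor genes Smad6 and Smad7 had broad promoter runs and many sites elsewhere. Smad7 (ENSMUSG00000025880.11, chr18:75367529-75395935, plus strand) held 1963 fragments in its start window (1877 to 2052), 139 times the mean, in 42.9% of cells (41.2 to 44.7). Smad6 (ENSMUSG00000036867.7, chr9:63953076-64022059, minus strand) held 1107 (1043 to 1174), 78.5 times the mean, in 26.5% of cells (24.9 to 28.1). The Smad7 window therefore held 1.77 times as many fragments (1.65 to 1.91). That difference depended on the window. The whole promoter runs held 3575 fragments in Smad7 (3459 to 3694) over 5000 bp and 3523 in Smad6 (3408 to 3641) over 3500 bp, and these intervals overlap. In Smad6 the largest bin, with 1324 fragments, lay between -1441 and -942 bp from the start, the bin across the start held 826 and the bin between them held 711. The summit was 1.02 kb upstream, outside the start window.

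In Smad7 the bin just upstream of the start held 1509 fragments and the next one upstream 675. The run went on past the start over 3 further coding starts, at 1354, 1461 and 2447 bp, whose windows were open with 367, 405 and 195 fragments. The first 2 of these windows overlap. Of the 9 other sites of Smad7 the highest lay 24.6 kb upstream, with 1002 fragments (941 to 1066) in 24.4% of cells (22.9 to 25.9), followed by 702 fragments at 11.1 kb and 693 at 25012 bp, both in intron 3. The other 6 held 79 to 377. Of the 16 other sites of Smad6, the highest was in intron 3 at 47.2 kb, with 1119 fragments (1054 to 1187) in 25.7% of cells (24.2 to 27.3), over 1500 bp, an interval that overlaps that of the Smad6 start window over 1000 bp. The next were 38.4 kb upstream, with 479 fragments, and 104 kb past the start, beyond the end of the gene, with 340. The other 13 held 78 to 328. None of the sites of either inhibitor lay at another gene's coding start.

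**Figure D2:**
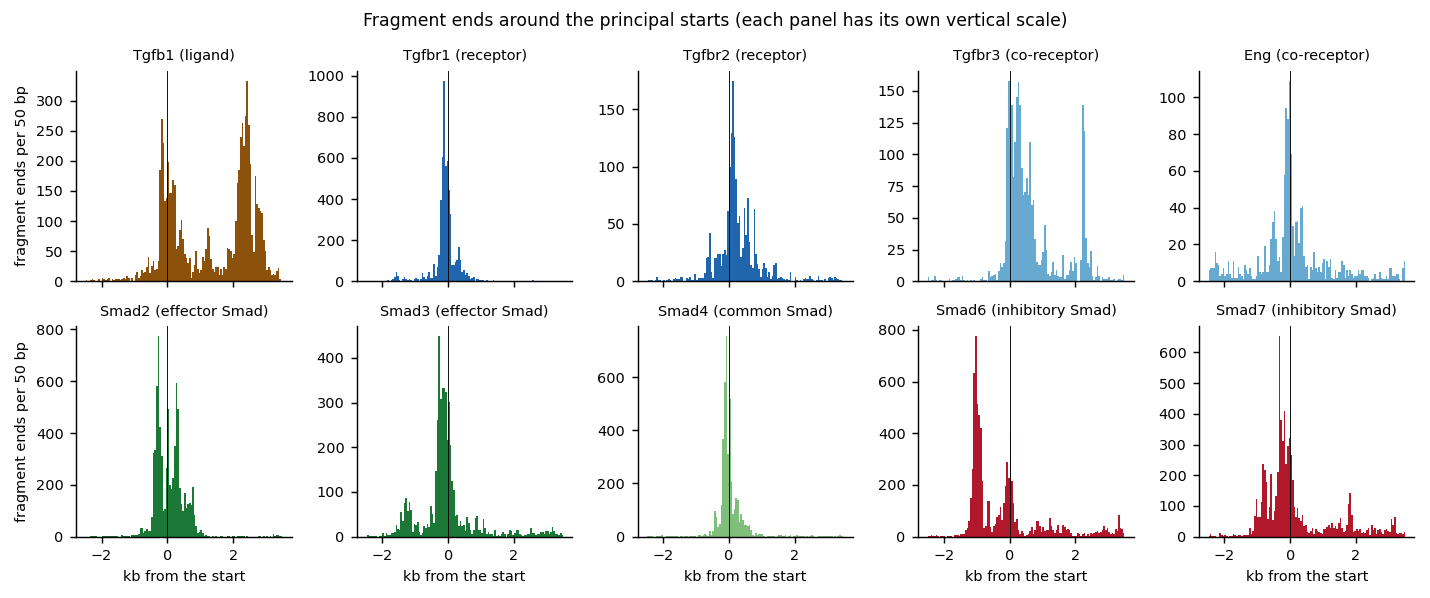
Fragment ends per 50 bp (vertical axis, scaled separately in each panel) around each principal start, in kb in the direction of transcription. Tgfbr1 and Smad4 show a single narrow peak at the start, Tgfb1 a higher peak 2.32 kb inside the gene, and Smad6 a higher peak 1.02 kb upstream.

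Promoter runs differed in length as well as in height. Smad7 had 10 open bins in a row, Tgfb1 8, Smad6 7, Smad3 5, Smad2 4, and Tgfbr1, Tgfbr2, Tgfbr3 and Smad4 3 each, while Eng had 2. Among the 11986 protein-coding genes with an open start, the median run was 1500 bp, 2.02% had 7 bins or more, 1.03% had 8 or more and 0.4005% had 10 or more. The 3 broadest runs belonged to the ligand and to both inhibitors. A run may include starts of noncoding transcripts, as in Smad7, where a start of Gm20544 lies in it.

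Across the 10 loci 216 of 3452 bins were open, or 6.26%, against 1.39% of all bins on chromosomes 1 to 19 and X. The loci were set around genes, whereas the genome-wide share includes bins far from any gene. Per locus, with the same 50 kb on either side, the median share of open bins was 5.18% for the members, 2.74% for all protein-coding genes and 4.105% for those with an open start. The lowest open bin held 71 fragments and the highest closed bin 69. The open bins formed 106 sites: 10 at the promoters, 34 in gene bodies and 62 outside the genes. Of the internal sites 32 were centered in introns of the principal transcript and 13 in the first intron. Of the sites outside the genes, 15 lay at a coding start of another gene and 16 of the other 47 lay in the body of one. Promoter sites held a median of 2400 fragments, internal sites 218.5, sites outside the genes at no coding start 185, and those at another coding start 1309.

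**Figure D3:**
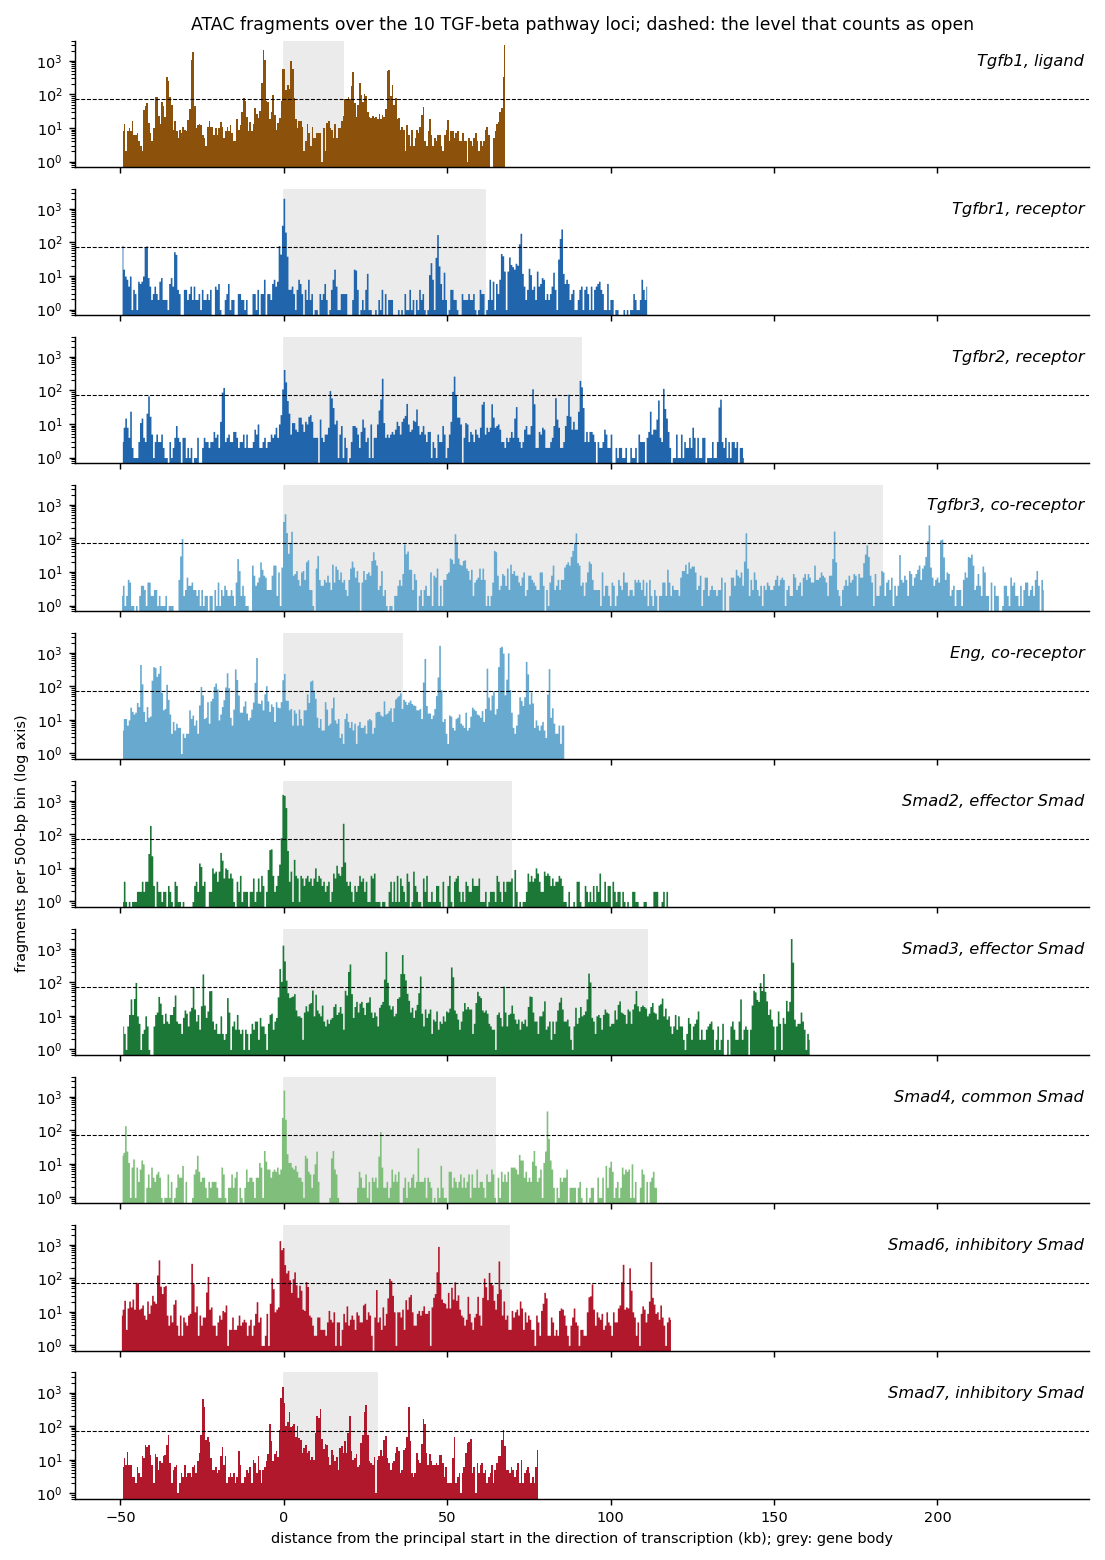
Fragments per 500-bp bin (log axis) over each gene body (grey) and 50 kb on either side, by distance in kb from the principal start in the direction of transcription, with a dashed line at the open level of 71 fragments. Smad2 and Smad4 rise above the line in 3 and 4 sites, whereas Smad3, Smad6 and Eng do so in 14, 17 and 19.

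The share of open-site fragments in the whole open run at the member's own start separated the loci. Leaving out sites at the coding starts of other genes, it was 90.3% in Smad2 (89.4 to 91.2), 77.1% in Smad4 (75.5 to 78.7), 71.0% in Tgfbr1 (69.5 to 72.4) and 57.8% in Tgfb1 (56.5 to 59.1). It was 50.1% in Smad7 (48.9 to 51.2), 44.8% in Smad6 (43.7 to 45.9), 38.6% in Tgfbr3 (36.7 to 40.5), 33.5% in Smad3 (32.4 to 34.7), 30.7% in Tgfbr2 (28.8 to 32.6) and 7.45% in Eng (6.76 to 8.18). In this order Smad2 lay far above Smad3 and Tgfbr1 far above Tgfbr2, whereas the inhibitors Smad7 and Smad6 were neighbors. Over all loci the share was 32.2% (31.9 to 32.6) of all open-site fragments and 48.0% (47.6 to 48.5) once other genes' starts were left out. These shares depend on what lies within 50 kb as well as on the promoter. They also depend on the length of the run, which in Tgfb1 takes in the peak in intron 1. With only the run bins that reach within 1000 bp of the principal start, the share was 26.0% in Tgfb1 (24.9 to 27.2), which moved from the fourth place of the order to the next to last. By the same count it was 41.4% in Smad6, 40.8% in Smad7 and 29.6% in Smad3, and the other 6 shares were the same because their runs lie within that distance. This alternative was added after the values had been seen.

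**Figure D4:**
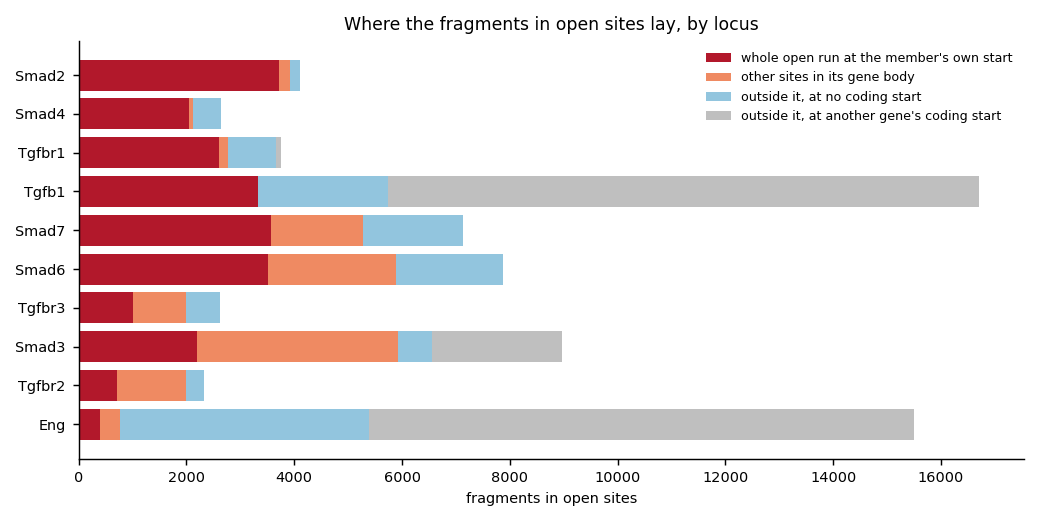
Fragments in open sites (horizontal axis) at each of the 10 loci, split by place: in the whole open run at the member's own start, in other sites of its gene body, outside it at no coding start, and at another gene's coding start. Most fragments at Tgfb1 and Eng lie at the starts of other genes, and Smad3 holds more in its gene body (3731) than in the run at its start (2197). The run of Tgfb1 (3319) includes 1824 fragments in bins over 1000 bp inside the gene.

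Internal sites and promoters differed in base composition. Over 200 bp at the summit, promoter sites had a median GC content of 72% (67 to 77) and internal sites 52% (38.5 to 67), the ranges meeting at a single value. Sites outside the genes at no coding start had a median of 54.5% and those at another coding start 62.5%. Fragments shorter than the DNA around 1 nucleosome made up 45.6% of all fragments in passing cells. In member start windows their share ran from 45.2% in Tgfbr2 (41.1 to 49.4) to 70.8% in Tgfbr1 (69.0 to 72.6). Among the sites shown above, it was 73.7% in the Eng upstream site and 32.9% in the Eng intronic site. The latter share was the lowest among the internal sites.

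Per cell, coverage of the pathway was sparse. Passing cells had a fragment in a median of 3 of the 10 start windows, with 85 cells at 0, 683 at 5 or more (22.0%) and 2 at all 10. Among the 1036 cells with the fewest fragments the median was 2, and among the 1036 with the most it was 4. Fragments in both the Tgfbr1 and the Tgfbr2 window were seen in 256 cells (8.24%, 7.29 to 9.26). A cell without a fragment in a window cannot be read as closed there, and a sum over cells does not tell fewer open cells from fewer fragments per cell.

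Motif strings were searched in the open bins on both strands, and the share of bins holding each was set beside that of all 73242 open bins on chromosomes 1 to 19 and X. SMAD proteins were represented by CAGAC, by the palindrome GTCTAGAC and by the GC-rich string GGCGCC. For RUNX the string was TGTGGT, for ETS factors GGAAGT, and for GATA factors AGATAA. AP-1 was represented by TGANTCA, the E-box proteins by CAGNTG and MEIS by TGACAG. The KLF and SP factors were represented by GGGCGG and NF-Y by CCAAT. The short element bound by SMAD3 and SMAD4, CAGAC, was in 72.7% of the 216 open member bins (66.2 to 78.5) and in 69.8% of all open bins. TGTGGT was in 31.0% (24.9 to 37.6) against 29.8%, GGAAGT in 38.9% (32.3 to 45.7) against 34.0% and AGATAA in 15.7% (11.2 to 21.3) against 16.7%. The shares were 16.7% against 18.2% for GGCGCC, 14.4% against 12.03% for TGANTCA and 71.3% against 71.0% for CAGNTG. They were 28.7% against 28.01% for TGACAG, 37.04% against 39.8% for GGGCGG and 38.9% against 42.0% for CCAAT. For all 11 strings the interval of the member share held the share of all open bins. That was also so for the 78 member bins within 1000 bp of a coding start and for the 138 others, or 33 of 33 intervals. With this number of bins, no share could be told from that of open chromatin in general.

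The palindrome GTCTAGAC occurred in 2 of the 216 open member bins, or 0.926% (0.112 to 3.30), against 0.479% of all open bins. Both bins were at the starts of the inhibitors. Counted from 0 at the principal start, the Smad6 match spans positions -4 to 3, in a bin of 826 fragments. The Smad7 match spans -353 to -346, in the bin of 1509 fragments just upstream of the start. Among all protein-coding genes, 173 of 21670 start windows held the string (0.798%). A match is a string of letters and does not show that a SMAD protein is bound. The core of the CTCF motif, searched only after the sites had been seen, was in 7 open member bins, 3.24% (1.31 to 6.56), against 5.63% of all open bins. Those 7 were at the loci of Tgfb1, Tgfbr1, Eng (1 bin each), Tgfbr3 and Smad6 (2 bins each).

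Beyond the 10 members, 57 other genes of the wider pathway were listed by role, with Skil counted both as a regulator and as a target. Of these, 42 had open starts (73.7%), against 55.3% of all protein-coding genes, with a median of 39.5 times the genome mean. Among ligands of the family 7 of 11 were open, with a median of 14.7 times the mean, against 15.8 times over all protein-coding genes. Tgfb3 was highest at 38.9 times the mean. Tgfb2 was under the limit at 8.72 times at its principal start and open at 12.8 times at another annotated start. Inha, the inhibin alpha subunit, was lowest at 5.67 times. Tgfb1, at 82.4 times, was above all 11. Of the genes that keep or release latent ligand 6 of 11 were open, from Furin, the protease that cuts the precursor, at 96.0 times, down to the integrin gene Itgb6 at 0.496 times. Ltbp1, which encodes a latent TGF-beta binding protein, was at 2.34 times at its principal start and open at 15.4 times at another. Ltbp4, of the same family, was likewise at 8.16 and 14.5 times and is named because its call changed with the start. With the start that held the most fragments in each gene, 46 of the 57 genes were open in place of 42, and 58.7% of all protein-coding genes in place of 55.3%, the 4 added being Tgfb2, Ltbp1, Ltbp4 and Skil.

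Other receptors of the family were open in 7 of 10 genes (70%), against 55.3% of all protein-coding genes. Bmpr2, a type II receptor for BMPs, was highest at 157 times the mean. Acvrl1, the type I receptor that pairs with endoglin in endothelium, was under the limit at 7.80 times, and Amhr2 was lowest at 1.13 times. All 3 other Smad genes were open, with Smad5 at 90.1 times and Smad1 at 45.0 times, both effectors of BMP signals, and Smad9 at 12.3 times. Regulators of the pathway were open in 13 of 14 genes, led by Strap at 155 times, and the co-repressor gene Ski stood at 45.4 times. The exception was Skil, a co-repressor gene, whose principal start held 27 fragments while another annotated start of the same gene held 4992.

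Among genes known to respond to the pathway 6 of 9 had open principal starts (66.7%), against 55.3% of all protein-coding genes. Cdkn1c, which encodes a cell-cycle inhibitor of the CIP/KIP family, was highest at 96.4 times the mean. The Id genes, which encode inhibitors of basic helix-loop-helix factors, were open at 87.7 times for Id2, 35.4 times for Id1 and 22.1 times for Id3. Skil was the lowest at its principal start, at 1.91 times, whereas its start with 4992 fragments was at 354 times. The list was fixed with earlier results of these data known, so its share is a description of these starts.

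**Figure D5:**
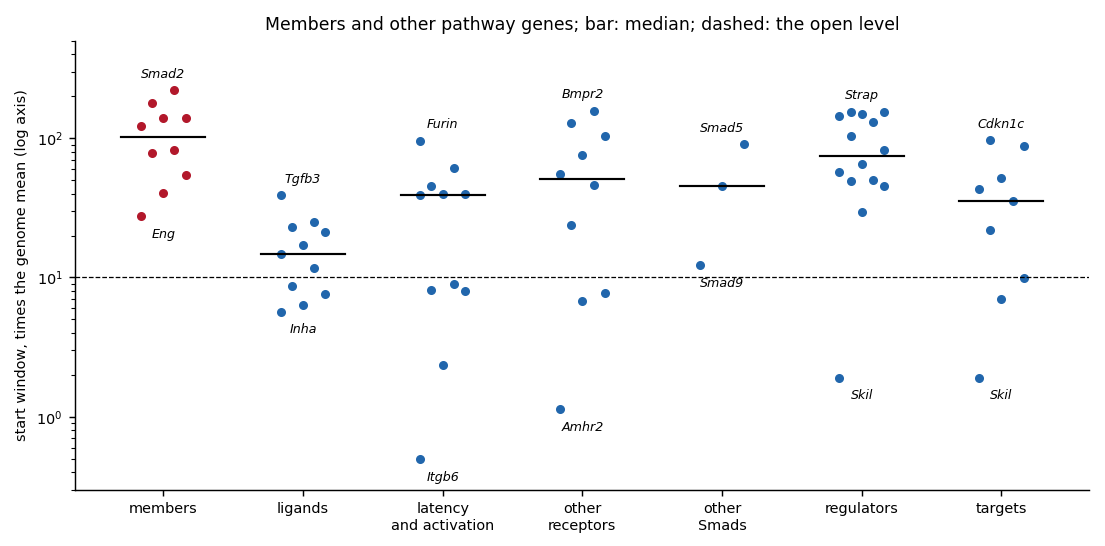
Start windows in times the genome mean (log axis) for the 10 members (red) and the 57 other pathway genes by role (blue), with bars at the medians, a dashed line at the open level and the highest and lowest gene of each role named. Every member lies above the line, while ligands, latency genes, receptors, targets and the regulator Skil have points under it.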

How the data were processed

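The deposited ATAC values are counts: per the file headers they were made by the authors in Cell Ranger ARC 2.0.2 on mm10, which collapses duplicate read pairs into unique fragments, lists each fragment's position and barcode, and counts fragments in peaks for each of 605049 barcodes. Whether fragment ends carry the usual shift for the transposase is not given in these sources. Such a move would shift positions by a few bases. No value was normalized. Of 42000180 fragments, 60494 lay off chromosomes 1 to 19 and X and were left out. The RNA and antibody libraries were not used here, and 23 columns of per-barcode counts were not used. Barcodes with the call 1 for a cell and over 3000 fragments in peaks were kept (3108 of 3757 called). The study's other limits on cells and any doublet removal were not applied. Each fragment was counted once, by its midpoint.

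Genes and starts were from GENCODE vM21 on GRCm38, the build of the files. The principal start is that of the transcript with the best APPRIS tag, then CCDS membership, then transcript support level, then length. Open means 10 times the genome mean or more. Neighboring open bins formed a site, called promoter within 1000 bp of a coding start of the member, internal in its body and distal otherwise. Named in the text are all members, their 3 highest other sites, and of the other pathway genes the highest and lowest of each role and a list of genes set with it, of which 1 is not reported here. The members and lists were chosen with earlier results of these data known. RefSeq promoters were found for 6 of the 10 members. Counting and calling were tested on simulated data. Alternatives varied the cells, counting, fragment size, threshold, window, start, bin grid, joining and promoter distance. Python 3.11.15, numpy 2.4.6, pandas 2.3.3, scipy 1.17.1, pysam 0.24.0 and matplotlib 3.10.9 were used.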

Additional observations from a re-analysis of the deposited data

Results flagged for a closer look

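Fragments in the members' start windows were also present in barcodes outside the passing cells. Barcodes not called as cells held 773 fragments in the 10 windows, 17.9 to 127 times their own genome mean. Smad2 was highest and Eng lowest as in the passing cells, with Eng at 24 fragments and Tgfbr2 next at 27. The 649 called cells at or under 3000 fragments in peaks entered only the alternative with every called cell. They held 504 fragments in these windows, 24.7 to 223 times their own mean. Smad2 was highest, while Tgfbr2 (12 fragments) and Eng (13) were lowest and within counting error of each other.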

How the results depend on the processing

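All 10 member promoters stayed open under the 9 alternatives run for them, including a limit of 20 times the genome mean, where 46.8% of all protein-coding starts were open. The median member promoter rose from 102 to 136 times the mean with sub-nucleosomal fragments alone and fell to 70.9 times with a 2000-bp window, and differed by less than its counting interval under the other 5 alternatives. Eng was the lowest member in all 7 alternatives that could reorder them and Smad2 the highest in 6. With sub-nucleosomal fragments Tgfbr1 was the highest, with 1774 such fragments against 1770 in Smad2. The order of the other members changed with the 2000-bp window, with sub-nucleosomal fragments and, for Smad7 and Smad4, with every called cell. Open member bins numbered 368 at 5 times the mean and 124 at 20 times, against 216, and stayed within 1.5 times of it elsewhere, as did the sites and the open starts of other pathway genes (38 to 53 against 42, at limits of 20 and 5 times the mean, where 46.8% and 61.1% of all starts were open). The promoter share of open-site fragments, 32.2%, moved beyond its narrow counting interval to 33.3% with bins shifted by 250 bp, 31.4% with sub-nucleosomal fragments, 34.2% and 30.9% with limits of 20 and 5 times the mean, 33.2% with sites joined across 1 closed bin, 33.5% with promoters taken within 2000 bp, and, in an alternative added after seeing the data, 28.05% with only the run bins within 1000 bp of the principal start. At 20 times the mean the share of member bins with AGATAA was 10.5% (14.3% of all such bins), with GGCGCC 23.4% (24.3%) and with GGGCGG 47.6% (51.2%). No paired analysis was possible because the series holds 1 preparation and no second group. With no replicate, no library could be left out, and depth limits single sites to counting intervals.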
